A study of Mus musculus with 30 samples.

Results

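The nuclear-encoded subunits of the mitochondrial respiratory chain and of ATP synthase were followed in mouse liver over 5 diets. Members were taken by gene symbol from the names in the deposited table: symbols that begin with Ndufa, Ndufb, Ndufc, Ndufs or Ndufv and a digit, the Sdh subunit genes a to d, and symbols that begin with Uqcr, Cox4 to Cox8, or Atp5. This gave 80 of the 14173 genes in the table, with 37 in complex I, 4 in complex II, 8 in complex III, 14 in complex IV and 17 in complex V. All 80 have an entry in GENCODE M21 for GRCm38, with coordinates equal to those in the table. The rule leaves out *Cyc1*, the cytochrome c1 of complex III, and *Ndufab1*, the acyl carrier protein of complex I. It also places *Ndufa4* with complex I by its name, although its protein is known as a subunit of complex IV. A further 4 genes match the rule only by their reference names. All 4 are processed pseudogenes, with mean normalized counts from 3.33 to 8.17, and were left out.

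The respiratory chain passes electrons from NADH (complex I) and succinate (complex II) through coenzyme Q, complex III and cytochrome c to oxygen at complex IV. Complexes I, III and IV pump protons across the inner mitochondrial membrane, and complex V, ATP synthase, uses their return to make ATP. Most subunits are encoded in the nucleus, made in the cytosol and imported, while a small set is encoded by mitochondrial DNA, except in complex II, which has nuclear subunits only. In the liver it supplies the ATP for gluconeogenesis and urea synthesis, and takes up the electrons released when fatty acids are oxidized.

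The samples were livers of male C57BL6/J mice, 6 months old, fed 1 of 5 diets for 12 weeks, 6 mice per diet, with 1 library per mouse. Cas-20% (labelled NP) held 20% casein with 0.57% methionine and 0.41% cystine, and Cas-5% (labelled LP) held 5% casein with 0.15% and 0.1%. Soy-20% (20Soy) held 20% soy protein with 0.22% of each, Soy-20% + SAA (20Soy_SAA) the same protein with sulfur amino acids (SAA) added to 0.58% and 0.41%, and Soy-10% (10Soy) 11.5% soy protein with 0.13% of each. The casein contrast therefore removed more protein than the soy contrast did, and the soy control without supplement was itself lower in methionine than the casein control. Whole liver was sequenced, so fewer cells of a type and less RNA per cell cannot be told apart. Libraries held 7694015 to 14565542 counts, with a median of 10803734. They were made from transcript 3′ ends, where each transcript gives about 1 fragment whatever its length, so counts of different genes can be set side by side without a length correction.

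The 80 members took 1.77% to 2.27% of the counts of a library. Their mean normalized counts (raw counts divided by the size factor of the library) over 30 livers had a median of 2303, with 64 members at 1000 or more and 7 under 100. *Atp5g3*, which encodes subunit c of the ATP synthase rotor ring, was the most abundant at 18705. The most abundant member was *Ndufa6* (5036) in complex I, *Sdhb* (3334) in complex II, *Uqcrq* (9316) in complex III and *Cox6a1* (6151) in complex IV. Complex I took 28.7% to 31.6% of the counts of all members and complex V 29.9% to 33.2% across the 30 libraries. *Atp5l*, *Ndufs5* and *Atp5g2*, with means of 30.4, 57.8 and 15.4, lie far under their partner subunits. Genes with near-identical copies elsewhere in the genome can lose reads in counting, and the values of these 3 genes are uncertain.

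On Soy-20% + SAA, libraries 3 to 6 stood apart before any test. In them, each further 10% of GC in the last 200 bases of a transcript went with log2 counts higher by 0.0581, 0.195, 0.192 and 0.215. The same slope was −0.0203 and −0.0308 in libraries 1 and 2 of this diet and lay between −0.0715 and 0.039 in the 24 libraries of the other diets. *Sdhd*, with 33.0% GC in that window, had normalized counts of 1268 and 802 in libraries 1 and 2, and of 168, 45.0, 28.9 and 23.1 in libraries 3 to 6. Comparisons below that use this diet are therefore also given from libraries 1 and 2, or with the slope as a covariate. Soy-20% served as the main soy control.

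Casein restriction was asked about first: did the subunits change when casein was lowered from 20% to 5%? They were lower across all 5 complexes. Of the 78 members that passed the filter on low counts, 50 fell, 0 rose and 28 did not pass the test at an adjusted p of 0.05 (edgeR quasi-likelihood F test, Benjamini-Hochberg over 12076 genes). Among all genes tested, 24.9% were called, 11.6% higher and 13.3% lower. Abundant genes were called more often than others: of 1288 other genes with mean counts from 851.1 to 4990.5, a range that holds the middle 80% of the members, 44.7% were called and 28.4% were lower. The median log2 fold change of the members was −0.26, a fall of 16.2%, against 0.02 for all genes tested. It was negative in 72 of 78 members. In 44 members every Cas-5% liver lay below every Cas-20% liver, which was so for 7.73% of all genes tested.

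**Figure D1:**
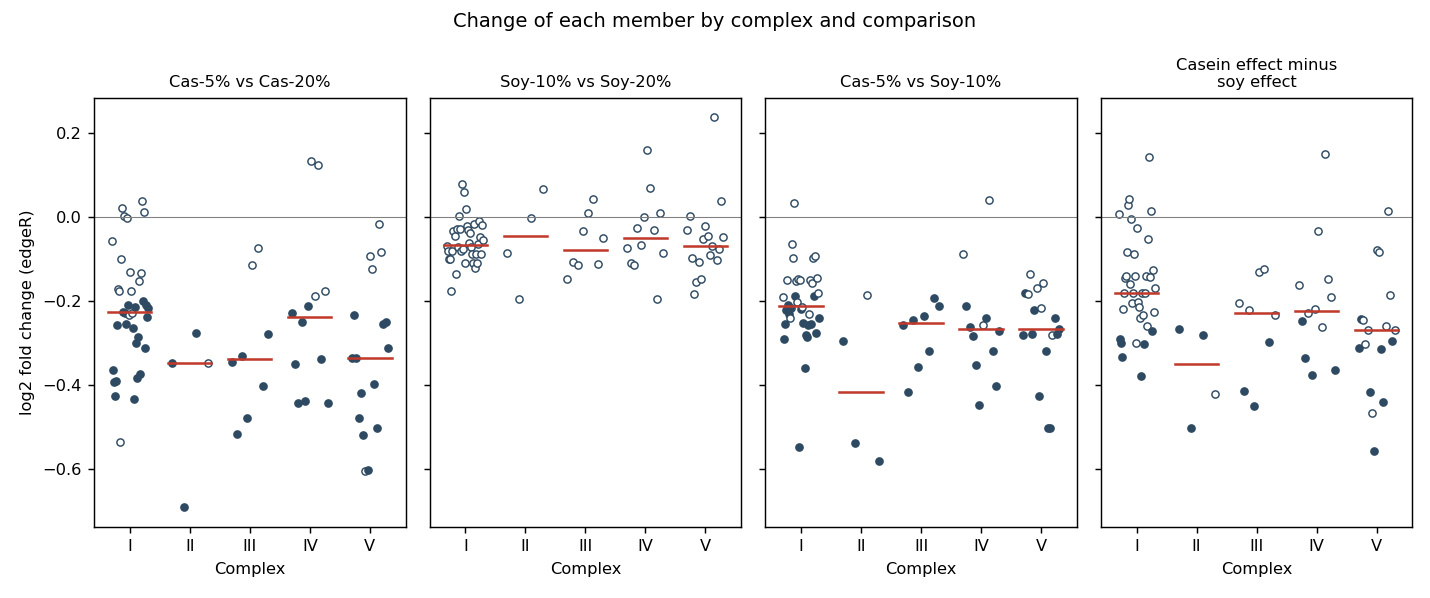
The log2 fold change (vertical axis) of each tested member, grouped by complex I to V (horizontal axis), in 4 comparisons. Filled points passed an adjusted p of 0.05 and red lines are medians: in the casein panel 50 of 78 points are filled, all below 0, and in the soy panel none is filled. With libraries scaled to their totals alone, 2 members were called higher in the casein panel.

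The size of the shift depended on how libraries were scaled. With each library scaled to its total count alone, the median of all genes moved from 0.02 to 0.20. That of the members moved from −0.26 to −0.075, and the share of calls over all genes that were higher from 46.4% to 82.6%. Under that scaling 20 members were called lower, while *Cox7a2l* and *Ndufs7* were called higher, where 38.6% of all genes were called and 6.72% were lower. A change of scaling moves all genes by about the same amount, so the members' median minus that of all genes, −0.27 under both, says nothing about stability. All 50 genes kept a negative value. Where livers are said not to overlap for a gene, this was read from normalized counts, not from library totals.

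In complex I, 21 of 37 members fell, with a median log2 fold change of −0.23. They included 5 of the 7 core subunits, which hold the flavin and the iron-sulfur clusters, and 16 of 30 accessory subunits. *Ndufb8*, an accessory subunit of the membrane arm (chr19:44548572-44555440), had normalized counts of 2452, 2659 and 2985 (lowest, median and highest of 6 livers) on Cas-20% and of 1636, 1987 and 2159 on Cas-5%. The diets did not overlap, and the log2 fold change was −0.43 (standard error, SE, 0.08, edgeR adjusted p = 0.00058). *Ndufa11*, another membrane arm subunit, fell by 0.39 (adjusted p = 0.00068 by edgeR) and *Ndufa12*, an accessory subunit of the matrix arm, by 0.43 (adjusted p = 0.00076). The most abundant gene of the complex did not follow: *Ndufa6* had medians of 4996 and 4944 on Cas-20% and Cas-5%, with overlapping livers and a log2 fold change of 0.02 (edgeR adjusted p = 0.88). The core subunit gene *Ndufs7*, at 0.01 (adjusted p = 0.92), was likewise level under this scaling.

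Complex II, succinate dehydrogenase, also serves in the tricarboxylic acid cycle. Of its 4 genes 3 fell. *Sdhb*, the iron-sulfur subunit (chr4:140961203-140979193), had the largest fall among the called members. Its normalized counts were 3244, 3588 and 3925 on Cas-20% and 1931, 2153 and 2559 on Cas-5%, with no overlap (log2 fold change −0.69, SE 0.08, edgeR adjusted p = 1.2e-05). *Sdha*, the flavoprotein subunit, had a highest count of 2366 on Cas-5% and a lowest of 2807 on Cas-20%, and fell by 0.35 (adjusted p = 2e-04 by edgeR). *Sdhc*, a membrane anchor, fell by 0.28 (adjusted p = 0.011), with livers that overlapped between the diets. *Sdhd*, the other anchor, had medians of 1175 and 954 with wide ranges of 862 to 1752 and 535 to 1387, and its log2 fold change of −0.35 did not pass (adjusted p = 0.21).

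Complex III had 6 of 8 members that fell, with a median of −0.34. *Uqcr11*, a small accessory subunit (chr10:80402997-80406830), had normalized counts of 1808, 1890 and 2082 on Cas-20% and of 1259, 1340 and 1442 on Cas-5%. No liver overlapped, and the log2 fold change was −0.52 (SE 0.06, edgeR adjusted p = 1.2e-05). *Uqcrc1*, a core protein of the matrix side, fell by 0.48 (adjusted p = 1e-04 by edgeR) and *Uqcr10* by 0.35 (adjusted p = 0.00055). *Uqcrq*, the most abundant, fell by 0.28 (adjusted p = 0.0053). *Uqcrfs1*, the Rieske iron-sulfur protein, had medians of 2333 and 2193 and did not pass (log2 fold change −0.07, adjusted p = 0.63).

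In complex IV, cytochrome c oxidase, 8 of 12 tested members fell, with a median of −0.24. *Cox6b1*, which lies on the intermembrane side where the enzyme forms dimers (chr7:30616861-30626151), had normalized counts of 4199, 4293 and 4645 on Cas-20% and of 3062, 3183 and 3286 on Cas-5%. The diets were fully apart, with a log2 fold change of −0.44 (SE 0.06, edgeR adjusted p = 2.4e-05). The matrix-side subunits *Cox5b* and *Cox5a* fell by 0.44 and 0.35 (adjusted p = 0.00018 and 0.00027 by edgeR), and the abundant *Cox6a1* by 0.25 (adjusted p = 0.0055). The largest positive values were 0.13 for *Cox7a1* and 0.12 for *Cox7a2l* (adjusted p = 0.52 and 0.24).

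In complex V, 12 of 17 members fell, with a median of −0.34. All 5 genes of the catalytic F1 part fell, *Atp5a1*, *Atp5b*, *Atp5c1*, *Atp5d* and *Atp5e*, by 0.23 to 0.48. So did 2 of 4 genes of the peripheral stalk, 2 of 3 of the c ring and 3 of 5 other membrane subunits. *Atp5g3* (chr2:73908447-73911326) had normalized counts of 19661, 21484 and 24077 on Cas-20% and of 12253, 14344 and 15139 on Cas-5%. The groups did not overlap, and the log2 fold change was −0.60 (SE 0.07, edgeR adjusted p = 1.4e-05). *Atp5k* and *Atp5j2*, subunits e and f of the membrane part, fell by 0.50 and 0.40 (adjusted p = 0.00011 and 0.00022 by edgeR).

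**Figure D2:**
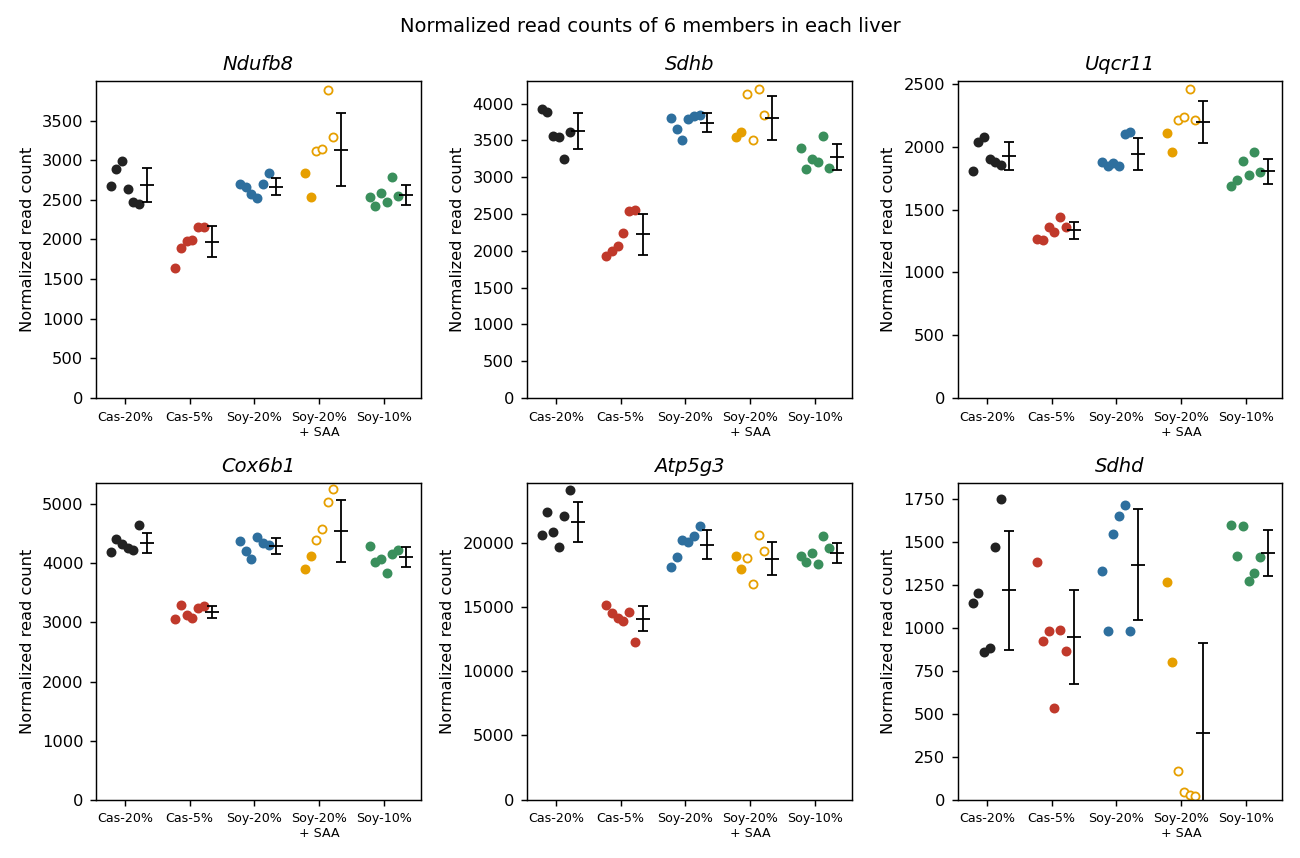
Normalized read counts (vertical axes, from 0) in each of 30 livers for 6 members, by diet (horizontal axis). Points are livers, open for Soy-20% + SAA libraries 3 to 6, and bars are the mean ± SD of 6: for the 5 members other than Sdhd all Cas-5% livers lie below all Cas-20% livers, and Sdhd lies at 23.1 to 168 in the open points.

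The c ring is built from 1 protein sequence encoded by *Atp5g1*, *Atp5g2* and *Atp5g3*, which differ in the import signal that is cut off. *Atp5g3* gave 94.5% ± 0.558 (SD, n = 6) of their summed counts on Cas-20% and 94.1% ± 0.573 on Cas-5%. *Atp5g1* gave 5.45% ± 0.538 and 5.78% ± 0.553. The count of *Atp5g2*, which enters these sums, is uncertain as stated above. The shares on the soy diets were as close, with *Atp5g3* at 94.7% ± 0.441 on Soy-20%, 94.6% ± 0.451 on Soy-20% + SAA (95.05% in its libraries 1 and 2) and 94.9% ± 0.264 on Soy-10%. *Atp5g1* itself fell after casein restriction by 0.52 (edgeR adjusted p = 0.00039), from a median of 1243 to 860, and *Atp5g2*, at medians of 21.1 and 13.6, did not pass (log2 fold change −0.61, adjusted p = 0.088).

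Promoter sequences are shown for the 3 members with the smallest adjusted p after casein restriction among those with an entry, since these genes all fell. They are RefSeq windows on GRCm38.p6 that run from 250 bases before to 50 bases after the start of the gene, on the strand of the gene. Capitals mark a match to 1 of 4 motifs searched on both strands. The windows are chr4:140961021-140961320 (plus strand) for *Sdhb*, chr10:80406772-80407071 (minus strand) for *Uqcr11* and chr2:73911277-73911576 (minus strand) for *Atp5g3*.
Sdhb: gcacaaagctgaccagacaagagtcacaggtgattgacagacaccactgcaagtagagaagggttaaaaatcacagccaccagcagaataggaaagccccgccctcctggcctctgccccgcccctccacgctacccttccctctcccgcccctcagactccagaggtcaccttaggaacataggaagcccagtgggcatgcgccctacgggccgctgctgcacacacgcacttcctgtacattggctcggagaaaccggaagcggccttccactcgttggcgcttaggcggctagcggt
Uqcr11: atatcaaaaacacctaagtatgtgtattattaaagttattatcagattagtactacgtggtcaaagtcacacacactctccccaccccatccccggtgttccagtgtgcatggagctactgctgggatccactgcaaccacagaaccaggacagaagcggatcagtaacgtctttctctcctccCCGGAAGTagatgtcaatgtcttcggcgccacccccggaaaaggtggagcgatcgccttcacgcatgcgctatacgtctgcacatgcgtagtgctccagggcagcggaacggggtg
Atp5g3: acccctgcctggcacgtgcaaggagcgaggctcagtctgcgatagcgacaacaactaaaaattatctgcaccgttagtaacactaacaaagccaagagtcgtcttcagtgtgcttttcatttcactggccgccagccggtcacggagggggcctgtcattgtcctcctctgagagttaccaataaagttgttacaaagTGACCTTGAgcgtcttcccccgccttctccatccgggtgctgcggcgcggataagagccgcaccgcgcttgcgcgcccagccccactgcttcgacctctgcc
The motifs were the consensus sites of NRF1 and YY1, CCGGAAGT (ETS factors, to which GABP belongs) and TCAAGGTCA (ERRA), each searched as an exact match. No match overlapped another. NRF1, GABP, YY1 and ERRA are known regulators of respiratory genes. *Uqcr11* has the ETS letters from position −66 relative to the start, *Atp5g3* the ERRA letters in reverse from position −52, and *Sdhb* has none of the 4. Of 66 members with a window, 5 held the NRF1 site (7.58%, against 1.07% of 27025 genes with a window and 2.37% of 9314 that were tested here). The YY1 site was in 4 (6.06%, against 0.755% and 1.91%), the ETS letters in 5 (7.58%, against 4.31% and 9.28%) and the ERRA letters in 2 (3.03%, against 0.466% and 0.333%). At least 1 of the 4 was in 16 of 66 members and in 11 of the 40 with a window that fell after casein restriction, against 6.38% of all genes with a window and 13.3% of those tested. A match is a description of these letters only.

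Soy restriction, from Soy-20% to Soy-10%, was the next question. No member passed the test (0 of 77), where 0.866% of 11897 genes tested were called. An unadjusted p under 0.05 was reached by 11 members, all lower, and by 12.3% of all genes. Without Soy-20% library 1 or 4 or Soy-10% library 2 there were 4 such members, and 2 with libraries scaled to their totals alone. DESeq2 called 2 members, *Ndufa13* and *Sdhb*, both lower, and 1.66% of all genes it tested. The log2 fold changes ran from −0.20 to 0.24, with 63 of 77 negative. Their median was −0.07 against −0.0004 for all genes, with a median SE of 0.056. The members' median was −0.04 without Soy-10% library 4, and −0.02 against 0.04 for all genes with libraries scaled to their totals alone. *Sdhb* had normalized counts of 3511, 3801 and 3844 on Soy-20% and of 3108, 3226 and 3563 on Soy-10%. The groups overlapped by a small margin, and its log2 fold change of −0.19 (SE 0.05) had an edgeR adjusted p of 0.10. *Atp5g3* had medians of 20171 and 19105 with overlapping livers (log2 fold change −0.05, adjusted p = 0.79).

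The difference between the casein effect and the soy effect was then tested over the 24 livers of these 4 diets. It was negative for 71 of 78 members, with a median of −0.22 against 0.003 for all genes. With libraries scaled to their totals alone these medians were −0.08 and 0.14. The difference was called for 23 members, all negative, where 5.99% of 12450 genes were called, 3.57% with a negative difference. Of the 1288 other genes of similar abundance 14.8% were called and 11.6% had a negative difference. Complex I had 6 of the 23, complex II 3, complex III 3, complex IV 4 and complex V 7. *Atp5g3* differed by −0.56 (SE 0.09, edgeR adjusted p = 0.00015), *Cox6b1* by −0.38 (adjusted p = 6e-04) and *Sdhb* by −0.50 (adjusted p = 0.0016). With libraries scaled to their totals alone 6 members remained of the 23, namely *Atp5g3*, *Atp5k*, *Cox6b1*, *Sdhb*, *Uqcr11* and *Uqcrc1*, where 10.0% of all genes were called and 1.77% had a negative difference. With single livers left out, 14 to 24 were called, with 14 without Cas-5% library 4 or Soy-20% library 3. With Soy-20% + SAA as the soy control 14 were called, 8 of them among the 23, where 8.69% of all genes were called. With its libraries 1 and 2 alone there were 18, of which 13 were among the 23, where 2.27% of all genes were called.

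The restricted diets were also compared with each other. Of 77 members 49 were lower on Cas-5% than on Soy-10% and 0 higher, where 10.7% of 12041 genes were called and 6.14% were lower. Of the 1288 other genes of similar abundance 23.4% were called and 18.7% were lower. The median was −0.24 against 0.01 for all genes, and in 36 members every Cas-5% liver lay below every Soy-10% liver, against 4.09% of all genes. All 8 members of complex III were lower, with 18 of 36 in complex I, 3 of 4 in complex II, 9 of 12 in complex IV and 11 of 17 in complex V. *Ndufb3*, an accessory subunit of the membrane arm, had counts of 2588, 2735 and 3137 on Soy-10% and of 1769, 1913 and 2004 on Cas-5%, apart in all livers (log2 fold change −0.55, SE 0.06, edgeR adjusted p = 3.3e-05). *Atp5k* was lower by −0.50 (adjusted p = 1e-04) and *Uqcr11* by −0.42 (adjusted p = 0.00015). *Sdhd*, at 1272 to 1598 on Soy-10% and 535 to 1387 on Cas-5%, was lower by −0.58 (adjusted p = 0.016), with livers that overlapped. With libraries scaled to their totals alone 21 members were called lower and 0 higher, where 13.1% of all genes were called and 3.26% were lower. The share of calls over all genes that were higher moved from 42.8% to 75%, and the members' median from −0.24 to −0.16. DESeq2 and the fit without a filter called *Cox6a2* higher. Of 6 stellate cell markers 5 were higher on Cas-5% in this comparison, with a median log2 fold change of 0.39, and their part in the changes of the members was not tested. This comparison shares the Cas-5% livers with the casein comparison, and the diets differ in both protein source and amount.

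Across Cas-20%, Cas-5%, Soy-20% and Soy-10%, 72 of 78 members had their lowest mean count on Cas-5% and none its highest there. The highest mean was on Soy-20% for 39 members, on Cas-20% for 27 and on Soy-10% for 12. Cas-20% and Soy-20% did not differ by edgeR in any of the 78 members, where 2.69% of 11875 genes were called. In that comparison 9 members had an unadjusted p under 0.05, against 18.3% of all genes. DESeq2 called *Cox6c* and *Ndufa5*, both lower on Cas-20%, and 4.71% of all genes, and without Cas-20% library 6 edgeR called *Ndufa5* and *Ndufb3*, both lower on Cas-20%, and 3.68% of all genes.

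Cas-5% was also the lowest of these 4 diets in a level for each complex and liver. This level was the mean over the tested members of the complex of log2 CPM, centred on the 30 livers. CPM are counts relative to a library size, which here was not the library total alone. Complex I had levels of 0.031 ± 0.084 (SD, n = 6) on Cas-20%, −0.195 ± 0.072 on Cas-5%, 0.089 ± 0.041 on Soy-20% and 0.020 ± 0.037 on Soy-10%. Complex III went from 0.055 ± 0.045 on Cas-20% to −0.269 ± 0.065 on Cas-5%. Complex V went from 0.068 ± 0.098 to −0.259 ± 0.070. On this scaling the highest Cas-5% liver lay below the lowest Cas-20% liver in all 5 complexes. As a share of library totals the livers overlapped. All 80 members took 1.77% to 1.94% of the counts on Cas-5% and 1.85% to 2.18% on Cas-20%. Soy-10% and Soy-20% livers overlapped in all 5.

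**Figure D3:**
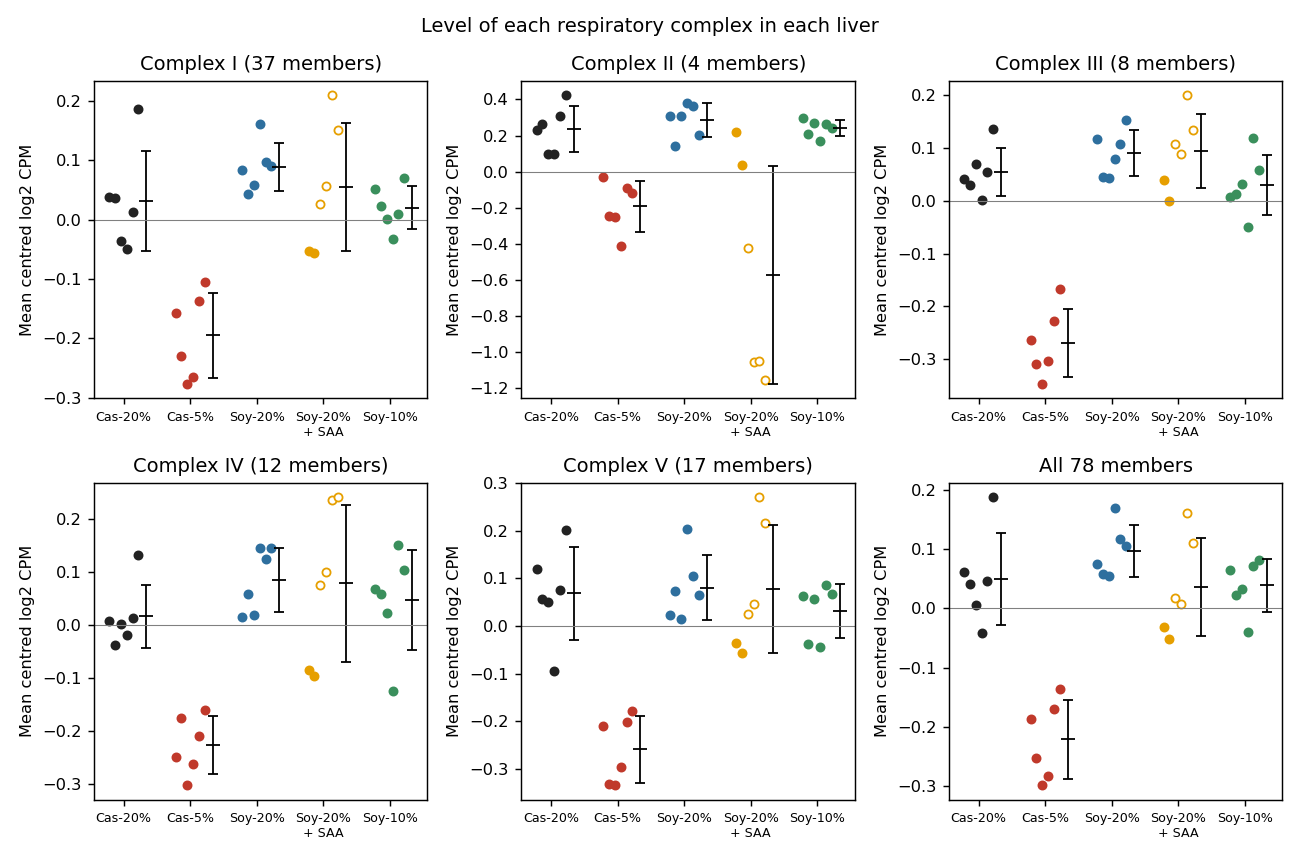
Mean centred log2 CPM of the tested members of each complex, and of all 78 (vertical axes, which differ in range), in each of 30 livers by diet (horizontal axis). Libraries were not scaled to their totals alone. Points are livers, open for Soy-20% + SAA libraries 3 to 6, and bars are the mean ± SD of 6: Cas-5% livers lie below all Cas-20% livers in each panel, and the open points reach down to −1.16 in complex II.

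In comparisons with the supplemented soy diet, results changed with the libraries used and with the GC slope covariate. Against Soy-20% + SAA, Soy-10% livers had 5 members higher and 7 lower, 15.6% of 77, where 17.0% of 11983 genes were called. The higher ones were *Ndufa1*, *Ndufa4*, *Ndufb3*, *Uqcrfs1* and *Cox7c*, and all had 36% GC or less in the last 200 bases. The lower ones were *Ndufa10*, *Ndufb8*, *Ndufs1*, *Sdhb*, *Uqcr10*, *Uqcr11* and *Atp5c1*, with 40.6% GC or more. With libraries scaled to their totals alone 9 members were called higher and 1, *Uqcr11*, lower, 6 of them among the 12, where 17.5% of all genes were called. With the GC slope of each library as a covariate 0 members and 2.6% of all genes were called by edgeR, with 11 members and 16.9% of all genes at an unadjusted p under 0.05. With libraries 1 and 2 alone as the control 2 members were called higher, *Ndufb3* and *Cox7a1*, and 2.54% of all genes were called. The members' median log2 fold change changed sign between these fits. It was −0.10 in the main fit, 0.047 with the covariate and 0.052 with libraries 1 and 2 alone. Without library 1 or 2 of the supplemented diet 23 members were called, along with 25.8% or 23.3% of all genes, and without its library 5 there were 4, along with 10.1%. Soy-20% + SAA against Soy-20% gave 0 of 78 members by edgeR, where 0.00838% of 11932 genes, a single gene, were called. An unadjusted p under 0.05 was reached by 16 members and by 24.2% of all genes. DESeq2 called 1 member higher and 6 lower there, and 7.46% of all genes. With the slope as a covariate edgeR again called 0 members, with 20 members and 8.51% of all genes at an unadjusted p under 0.05. With libraries 1 and 2 alone it called 0 as well, with 16 members and 6.81% of all genes at an unadjusted p under 0.05. Here too the members' median changed sign, from 0.025 in the main fit to −0.10 with the covariate and −0.11 with libraries 1 and 2.

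Within the Soy-20% + SAA diet, 13 tested members with at most 36% GC had a median log2 ratio of −0.13 between libraries 3 to 6 and libraries 1 and 2, and 65 members above that had 0.25. *Sdhd* was lowest at −3.97 and *Ndufa1* next at −0.96. Not all AT-rich members were lower: *Atp5b*, with 33.0% GC, and *Atp5g3*, with 36%, were among the 5 of 13 with a ratio above 0. Across 78 members, which share these libraries, the ratio and the GC content had a Pearson r of 0.331, and 0.357 without *Sdhd*. Over 10720 genes of the table r was 0.328. The complex II level was 0.130 ± 0.129 in libraries 1 and 2 and −0.920 ± 0.335 in libraries 3 to 6. Of its genes, *Sdha*, *Sdhb* and *Sdhc* had ratios of 0.25, 0.13 and −0.22, far from the −3.97 of *Sdhd*.

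**Figure D4:**
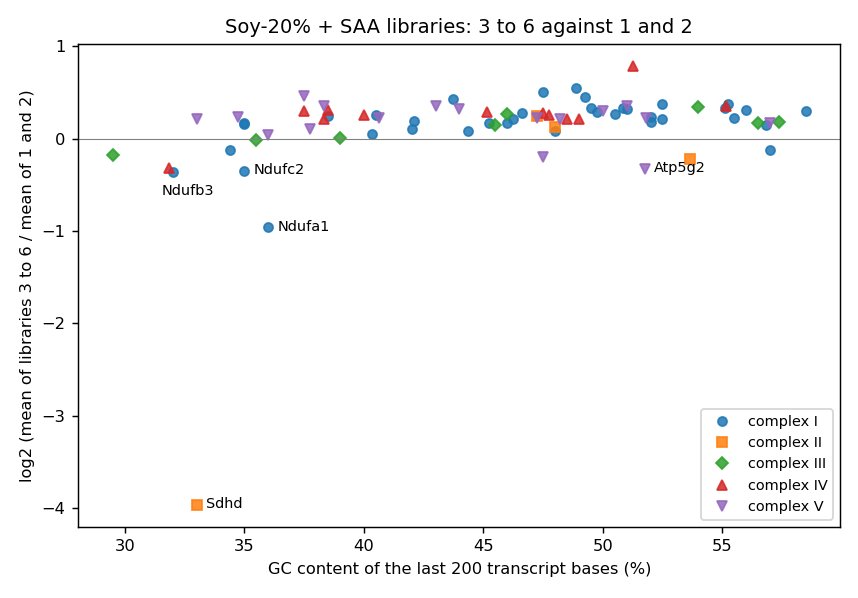
For each of 78 members, the log2 ratio of its mean normalized count in Soy-20% + SAA libraries 3 to 6 to that in libraries 1 and 2 (vertical axis) against the GC content of the last 200 transcript bases in % (horizontal axis). Symbols mark complexes: Sdhd lies at −3.97, apart from all others, and members above 36% GC have a median of 0.25.

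Isoforms known from other tissues were low: *Cox7a1* and *Cox6a2*, of heart and skeletal muscle, and *Cox6b2*, of testis. *Cox7a1* had a mean of 37.0 ± 5.29 normalized counts on Cas-20% and 40.1 ± 4.65 on Cas-5%, with no call. *Cox6a2* and *Cox6b2* did not pass the filter on low counts in any comparison. *Cox6a2* ranged from 0 to 4.09 on Cas-20% and from 6.59 to 16.8 on Cas-5%, with no overlap, and DESeq2 and the fit without a filter called it higher. *Cox6b2* ranged from 1.99 to 5.11 and from 3.84 to 10.7, and was called higher without a filter only. On Soy-20% *Cox6a2* ranged from 1.07 to 4.35 and on Soy-10% from 2.28 to 7.60. Skeletal muscle markers also differed in level: 4 of 6 were in the table, *Myh4* was the most abundant, and their summed count was 0.844 ± 1.19 on Cas-20% (*Ckm* at 0 in all 6 livers) and 40.9 ± 12.8 on Cas-5%, but also 31.7 ± 10.6 on Soy-20%. Their part in the *Cox6a2* values was not tested. *Ndufa4l2*, an isoform known for its induction in low oxygen, had means between 7.50 and 12.3 over the 5 diets with no call.

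Genes around the chain were read after casein restriction from lists of their own, where 24.9% of all genes tested were called and the median of all genes was 0.02. Of 46 tested assembly factors 13 fell and 1 rose (median −0.15). *Coa6* and *Ndufaf3*, which help to build complexes IV and I, fell by 0.65 and 0.36 (edgeR adjusted p = 0.00086 and 0.0051), and *Sdhaf1*, an assembly factor of complex II, rose by 0.26 (adjusted p = 0.023). In coenzyme Q synthesis 3 of 13 fell and 0 rose, with *Coq7*, a hydroxylase of the pathway, down from 371 ± 41.5 to 228 ± 23.2 normalized counts (log2 fold change −0.69, adjusted p = 2.7e-05). Of 12 tested genes in a list of subunits and electron carriers outside the symbol rule 3 fell. They included *Cyc1*, down by 0.40 (adjusted p = 0.0011 by edgeR), and proline dehydrogenase *Prodh*, down by 1.39 (adjusted p = 1.7e-07). In the same list the mitochondrial glycerol phosphate dehydrogenase *Gpd2* rose by 0.46 (adjusted p = 0.00095 by edgeR). *Aox1* in that list, a cytosolic aldehyde oxidase and so neither a subunit nor a carrier of the chain, rose by 0.92 (adjusted p = 7.9e-06).

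Among 14 regulators of respiratory genes the coactivators *Ppargc1a* and *Ppargc1b* fell by 0.37 and 0.48 (edgeR adjusted p = 0.014 and 0.011), *Pprc1* of the same family rose by 0.80 (adjusted p = 0.0087), and 11 did not pass. Of 16 other mitochondrial proteins 6 fell and 1 rose. *Vdac1*, the outer membrane channel, fell by 0.42 (adjusted p = 6.4e-05), *Phb*, a scaffold protein of the inner membrane, by 0.40 (adjusted p = 0.00075), and *Slc25a4*, an ADP/ATP carrier, rose by 0.31 (adjusted p = 0.024). Of 8 tested subunits encoded by mitochondrial DNA 6 fell, with a median of −0.55, led by *mt-Co1* at −0.81 (adjusted p = 1.8e-05). After soy restriction against Soy-20%, *Prodh* was the only one of the 109 genes of these lists to pass by edgeR. Of all genes 0.866% were called there. With single livers left out 0 to 2 of the 109 list genes passed. Against Soy-20% + SAA 18 of them passed, where 17.0% of all genes were called, and 2 with the GC slope as a covariate, where 2.6% were.

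Markers of liver cell types were read in the same libraries. All 6 hepatocyte markers were present, with a summed count of 807700 ± 48719 on Cas-20% and 874980 ± 78249 on Cas-5%, mostly *Alb*, and 1 of 6 was higher and 3 lower after casein restriction. Stellate cell markers summed to 3817 ± 297 and 4698 ± 548, with 3 of 6 higher, and red blood cell markers to 24380 ± 6835 and 16122 ± 3648, with 4 of 5 lower. Kupffer cell markers, with 0 of 6 called, summed to 2898 ± 545 and 2868 ± 424. Pancreatic acinar markers were high in Soy-10% library 4 alone, at 5412, with means under 1 on the other 4 diets. Of 5 adipocyte markers 2 were in the table, mostly *Fabp4*, with summed counts of 203.5 ± 41.0 and 128 ± 34.5. Of these 1 was tested after casein restriction and was not called. The part of these shifts in the changes of the members was not tested.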

How the data were processed

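RNA was measured by QuantSeq 3′ FWD sequencing of 30 livers. The authors processed reads with the Bluebee pipeline and deposited raw counts per gene, and a normalized signal that equals those counts divided by DESeq2 size factors. Submitters' notes name R 4.0.3, DESeq2 1.30 and GRCm38. Aligner, counter and annotation release are not given in the sources used here. Samples were grouped by diet as labelled. Counts were tested with edgeR 4.0.16 in R 4.3.3 (filterByExpr, TMM, quasi-likelihood F test, Benjamini-Hochberg at 0.05). Alternatives were DESeq2 1.42.0, other scalings and filters, a GC slope covariate, all 30 libraries in 1 fit, a replicate block and each library left out. Depth was 7694015 to 14565542 counts. Levels per complex used a prior count of 2. Members and lists were chosen with earlier results of these data known. Named genes were, per complex, up to 3 called members by smallest adjusted p and direction, in the casein and both soy comparisons, and up to 3 elsewhere. The most abundant member of each complex, all Sdh genes, muscle isoforms, c ring genes, called members against the majority, and up to 3 called genes per list were added. Not all list genes picked this way are named in the text. Genes outside these picks, such as *Cyc1*, *Gpd2*, *Sdhaf1* and *Slc25a4*, were named after their values were seen. Fits were tested on simulated counts of genes of any abundance. A true log2 change of 0.3 was called in 7 of 50 genes for casein and 13 of 50 for soy. A change of 1 was called in 46 of 49 and 46 of 48. Small changes can thus be missed.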

Additional observations from a re-analysis of the deposited data

Results flagged for a closer look

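Casein and soy restriction differed in their effects by a direct test for 23 members, which flagged this result. The test called 5.99% of all genes and 14.8% of other genes of similar abundance. With libraries scaled to their totals alone 6 of the 23 members remained. Of the 23, those with the smallest adjusted p were *Atp5g3* at −0.56, *Cox6b1* at −0.38 and *Sdhb* at −0.50 (log2 scale, edgeR).

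Single livers stood far from the other 5 of their diet in 6 of 190 groups examined, where chance alone flags about 1 in 20. In Soy-10%, *Cox6a1* had a lowest normalized count of 5888 in library 4 (next 6323), and *Sdha* one of 2670 in library 1 (next 2798). *Ndufa4* had a highest count of 3919 in Cas-5% library 1 (next 2628). *Cox6a2* had a highest count of 5.52 in Soy-20% + SAA library 2 (next 2.31). The highest level on Cas-20% was in library 6 for complex I, at 0.19 (next 0.04), and for complex IV, at 0.13 (next 0.01). Without that library the casein comparison still called 46 members, all lower.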

How the results depend on the processing

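Scaling by library totals called 22 members for casein, 21 for Cas-5% against Soy-10%, 6 for the difference of effects, 10 for Soy-10% against Soy-20% + SAA (9 higher) and 1 for Cas-20% against Soy-20%. DESeq2 called 2 for soy, 7 for Soy-20% + SAA against Soy-20% and 2 for Cas-20% against Soy-20%, and 3 list genes for soy. Without a filter the difference had 15, with 692 of all genes called. With 30 libraries in 1 fit it had 14, Soy-10% against Soy-20% + SAA 27, and Soy-20% + SAA against Soy-20% 13. In that order 493, 3077 and 1793 of all genes were called in that fit, against 746, 2035 and 1 in the main fits. Against Soy-20% + SAA 12 members and 18 list genes were called, 0 and 2 with the GC covariate, and 2 and 2 with libraries 1 and 2 (1 of these 2 members among the 12). With Soy-20% + SAA as control the difference had 14 and the comparison of 20% casein with it 1 (0 with its libraries 1 and 2). Causes were not tested. No called member that is named reversed its direction under any alternative.

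With single livers left out, casein called 46 to 53 members, Cas-5% against Soy-10% 35 to 53, soy 0 to 0, the difference 14 to 24, Cas-20% against Soy-20% 0 to 2, Soy-10% against Soy-20% + SAA 4 to 23 and Soy-20% + SAA against Soy-20% 0 to 9. List genes ranged from 31 to 36 for casein, 0 to 2 for soy and 10 to 30 against Soy-20% + SAA. The difference had 14 without Cas-5% library 4 or Soy-20% library 3, and 15 without Cas-5% library 2, Soy-20% library 2, or Soy-10% library 3 or 5. The comparison of Soy-10% with Soy-20% + SAA had 23 without supplemented library 1 or 2 and 4 without library 5. It had 5 without library 6, 7 without library 3 or 4, 5 without Soy-10% library 2, 6 without Soy-10% library 1, 3 or 6, and 7 without Soy-10% library 4, and its list genes were 30 without supplemented library 1, 10 without library 6 and 11 without Soy-10% library 3. Soy-20% + SAA against Soy-20% had 8 and 9 without supplemented library 1 and 2. Of all genes 1587 and 1118 were called there, against 1 in the main fit. Cas-20% against Soy-20% had 2 without Cas-20% library 6. Of the 50 casein calls 45 were made whichever library was left out.

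Replicate numbers are shared between diets. Same-numbered deviations correlated at −0.197 to 0.289 (median 0.006, 13 of 60 pairs over 0.1), and 9 of 30 libraries were closest to their own number. No strong pairing was seen, and a weaker one within some numbers was not tested. With the replicate block 48 members were called for casein, 51 for Cas-5% against Soy-10%, 18 for the difference, 13 against Soy-20% + SAA and 0 in the other 3. The SE of the casein change was 0.25 for *Atp5g2*, at a mean of 15.4 counts, against a median of 0.073 over members.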
